A study of Mus musculus with 2 samples.

Results

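The Hes5 and Fabp7 high cells were 214 of the 4276 kept cells of a neurosphere library of the mouse glioma line GL261. Each cell was scored by its summed unique molecular identifiers (UMIs) of Hes5 and Fabp7 over all its UMIs, after mitochondrial and ribosomal genes were removed. The cells were chosen as the top 5% by this score, so their levels of both genes describe the choice. They were compared with the 3188 kept cells that held 0 UMIs of either gene, named the 0-UMI cells here. The remaining 874 kept cells held a UMI of at least 1 of the genes but lay below the threshold, and served as an intermediate group.

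GL261 cells, of C57BL/6 strain and labelled as astrocytoma, were sequenced as 1 library of adherent cells and 1 library of neurospheres with the 10x Genomics single cell 3′ chemistry. Both were kept in DMEM with 10% serum, and only the neurospheres received the growth factors EGF and FGF, each at 20 ng/ml, together with B-27 over 12 days. Per the sample records, both were dissociated with trypsin, and both were frozen in DMSO before library construction. The methods of the paper name trypsin for the adherent cells only, and trituration through pipettes for the neurospheres. As a model, the samples are cultures of a single cell line with no other cells of a brain or a host, and there was 1 library per condition. Cells are not replicates, so no test was run, no p-value is given, and every 95% interval covers counting error only.

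The 2 libraries held 10715 called cells, of which 9327 were kept. The kept neurosphere cells held 64943938 UMIs and the kept adherent cells held 46290996 UMIs on the genes left. Among the called cells, 12 barcodes were shared by the libraries, of which 0 belonged to a high cell. The high cells were somewhat shallower than the 0-UMI cells, with medians of 10820.5 and 12639 UMIs, while the intermediate cells had a median of 15632 UMIs. The median share of mitochondrial UMIs was 4.295% in the high cells and 3.99% in the 0-UMI cells, and that of ribosomal UMIs was 14.3% and 16.3%. After each cell was thinned to 5000 UMIs, the medians were 2514 and 2465 genes per cell. Of the 214 high cells, 5 lay over the 95th percentile of UMIs of the library, as did 123 of the 3188 0-UMI cells. The part of these differences in depth and ribosomal share in the results was not tested.

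Hes5 is a transcriptional repressor that is switched on when a Notch receptor binds its ligand, is cut, and releases its intracellular part to join the DNA-binding protein RBPJ. In the developing brain, Hes5 and its relative Hes1 mark radial glia and neural stem cells, in which they hold back neuronal differentiation. Fabp7, also called brain lipid-binding protein, carries fatty acids inside cells and is a classical marker of radial glia and immature astrocytes. Both genes are also found in gliomas.

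In GENCODE's annotation of GRCm38, the gene Hes5 (ENSMUSG00000048001) spans bases 154960923 to 154962371 of chromosome 4, and Fabp7 (ENSMUSG00000019874) spans bases 57784881 to 57788450 of chromosome 10. Nrarp (ENSMUSG00000078202), a feedback inhibitor of Notch signalling that was highest where Hes5 was present, spans bases 25180758 to 25183339 of chromosome 2. All 3 are read from the plus strand. The DNA upstream of these 3 genes is shown because the letters that RBPJ binds, TGGGAA, can be looked for in it. The stretches come from RefSeq promoters of GRCm38.p6 and are read 5′ to 3′ on the plus strand. They cover chr4:154960673-154960922 for Hes5, chr10:57784673-57784880 for Fabp7 and chr2:25180508-25180757 for Nrarp, with matches on either strand in capitals.
Hes5: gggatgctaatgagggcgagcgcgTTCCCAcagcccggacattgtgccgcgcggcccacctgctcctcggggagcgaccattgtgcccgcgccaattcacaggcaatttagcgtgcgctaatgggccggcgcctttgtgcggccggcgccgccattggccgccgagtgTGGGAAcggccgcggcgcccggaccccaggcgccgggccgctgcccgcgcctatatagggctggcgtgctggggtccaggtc
Fabp7: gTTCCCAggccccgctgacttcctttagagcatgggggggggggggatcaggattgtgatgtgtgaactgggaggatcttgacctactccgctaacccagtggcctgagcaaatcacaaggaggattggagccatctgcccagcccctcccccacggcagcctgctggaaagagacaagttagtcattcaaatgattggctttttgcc
Nrarp: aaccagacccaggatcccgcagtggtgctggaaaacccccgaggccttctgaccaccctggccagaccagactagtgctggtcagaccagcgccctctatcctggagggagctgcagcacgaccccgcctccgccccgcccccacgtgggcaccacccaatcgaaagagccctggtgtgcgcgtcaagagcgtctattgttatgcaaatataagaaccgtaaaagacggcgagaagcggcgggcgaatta

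In Hes5, a match on the minus strand began 226 bases before the RefSeq start (position -226) and a match on the plus strand began at -82. The Fabp7 window held 1 match, on the minus strand at -249, and that of Nrarp held 0. Matches were counted over RefSeq windows of 300 bases, which reach past the stretches shown into the start of the gene. Of all 32851 such windows, 25.6% held the letters at least once on either strand, and 3.79% held them 2 or more times. The letters CACNAG, which HES repressors bind, were found at -136 in Fabp7, on the minus strand at -179 and -79 in Nrarp, and in 42.5% of all promoters. A match describes the letters only, and says nothing of whether a factor was bound.

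The score, given as CPM (counts per 1000000 UMIs), ran from 357 to 21119 CPM in the high cells, with a median of 771 CPM. The last cell taken held 7 UMIs of Hes5 among 19619 UMIs, at 357 CPM, and the first cell left out held 9 UMIs of Fabp7 among 25573 UMIs, at 352 CPM. A high cell held a median of 10 UMIs of the 2 genes together, and 113 of the 214 cells held 10 or more. At the low end, 4 cells held 2 UMIs and 13 cells held 3 UMIs, so that part of the group was chosen on very few molecules.

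Fabp7 made up most of the choice. Of the high cells, 126 held Fabp7 only, 67 held both genes and 21 held Hes5 only. Summed over the high cells, Fabp7 stood at 923 CPM (95% counting interval 887 to 959), with a UMI in 193 cells. In the intermediate cells it stood at 101 CPM. Hes5 stood at 333 CPM in the high cells (312 to 355), with a UMI in 88 cells, and at 11.9 CPM in the intermediate cells. Over all kept neurosphere cells, Fabp7 was found in 23.6% of cells at 63.9 CPM and Hes5 in 4.54% of cells at 17.1 CPM. The 675 neurosphere barcodes that were left out had a median of 106 UMIs, and summed to 34.8 CPM of Fabp7 and 17.4 CPM of Hes5. With 10 UMIs of Hes5 behind it, the last level has an interval of 8.34 to 32.0 CPM. No cell type that should lack these genes was in the culture to give the level of free RNA.

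Although a cell could enter with either gene alone, the 2 genes went together. When cells were sorted by Hes5 alone, which leaves Fabp7 unused, Fabp7 stood at 366 CPM in the 194 cells with a Hes5 UMI and at 49.0 CPM in the 4082 cells without, a log2 ratio of 2.90 (95% counting interval 2.80 to 3.001). A UMI of Fabp7 was found in 58.2% of the former cells (51.0% to 65.3%) and in 21.9% of the latter (20.6% to 23.2%). With every cell thinned to 5000 UMIs, these shares were 47.6% and 12.4%. Conversely, Hes5 stood at 38.9 CPM in cells with a Fabp7 UMI and at 9.17 CPM in cells without, a log2 ratio of 2.09 (1.91 to 2.26).

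Fabp7 was higher in each class of cells with more Hes5 UMIs. Its level was 49.0 CPM in cells with 0 UMIs of Hes5, 130 CPM in the 84 cells with 1 UMI, 260 CPM in the 50 cells with 2 to 4 UMIs and 793 CPM in the 60 cells with 5 or more. Few cells carried the top class, in which 3 cells with 276, 158 and 72 UMIs held 506 of its 737 UMIs of Fabp7. Without the 3 highest cells of each class, a step chosen after the values were seen, the levels were 46.2, 101, 142 and 262 CPM. The share of cells with a Fabp7 UMI moved less over the last 3 classes, at 53.6%, 60.0% and 63.3%. Without the single cell with most Fabp7 UMIs, the log2 ratio of 2.90 was 2.50. The top 5% by Fabp7 alone (214 cells) and the 194 cells with a Hes5 UMI, 84 of which held just 1, shared 44 cells. This was 20.6% of the first set, against 4.54% of all kept cells with a Hes5 UMI, and 22.7% of the second.

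**Figure D1:**
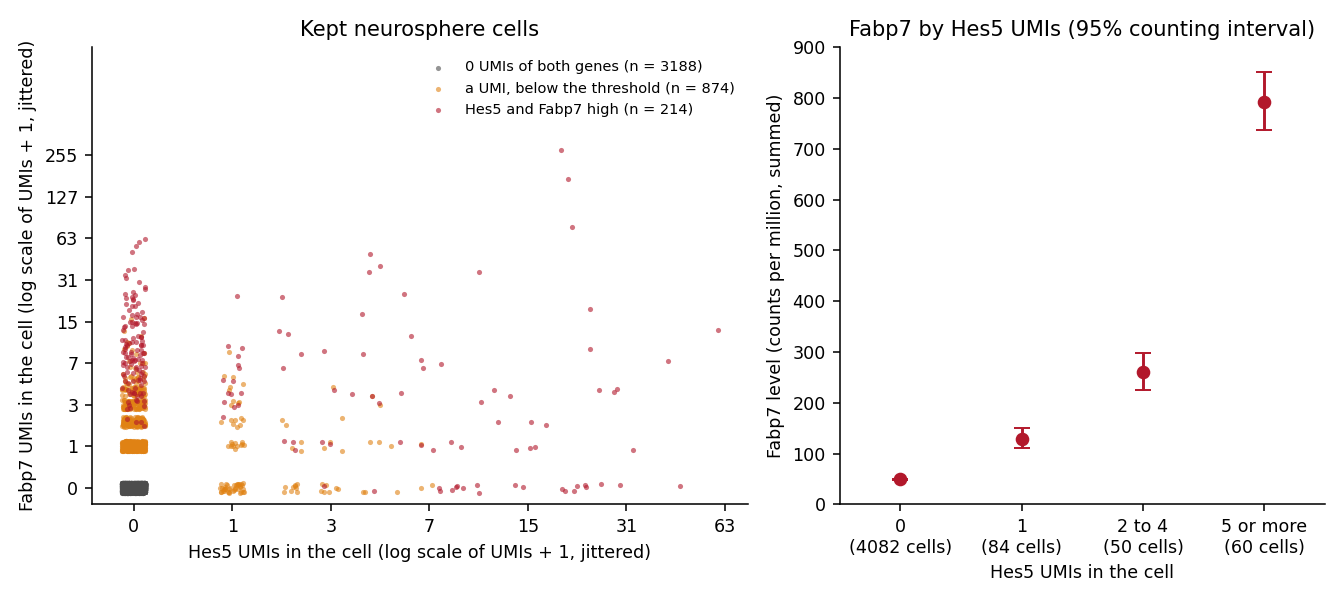
Left, each point is 1 kept neurosphere cell, with its Hes5 UMIs (x axis) and Fabp7 UMIs (y axis) on log scales of UMIs + 1, jittered, in the 3 groups of cells. Right, summed Fabp7 level in CPM by the number of Hes5 UMIs in a cell, with 95% counting intervals, which climbs from 49.0 to 793 CPM while 3 cells in the last class hold 506 of its 737 UMIs.

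Beyond the genes of the score, the high cells carried more RNA of some other glial and Notch genes and less of a keratin and of several stress genes. Among 8772 genes with at least 10 CPM over all kept neurosphere cells, 148 genes (1.69%) were at least 2-fold higher in the high cells than in the 0-UMI cells, and 153 genes (1.74%) were at least 2-fold lower. At 1.5-fold, 517 genes (5.89%) were higher and 408 genes (4.65%) were lower. The median log2 ratio over all 8772 genes was 0.03. The limit of 10 CPM was taken with the high cells included, so a sparse gene could pass it through them. How many of the higher genes did so was not counted. Restricted to cells with 10000 to 20000 UMIs, where 94 high cells were left, 175 genes were higher and 217 lower. Fewer cells give noisier ratios, so these counts do not settle the part of depth. The counts were lower when both groups were weighted to the high cells' shares of the clusters, an alternative chosen after the data were seen, to 47 higher and 131 lower genes.

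The 2 largest ratios belonged to Aldoc, the brain form of the glycolytic enzyme aldolase, and Smpdl3a, a phosphodiesterase related to acid sphingomyelinase. Aldoc stood at 90.8 CPM in the high cells, 30.3 CPM in the intermediate cells and 8.21 CPM in the 0-UMI cells, a log2 ratio of 3.47 (95% counting interval 3.23 to 3.70). It was found in 43.5% of the high cells and 8.41% of the 0-UMI cells. Smpdl3a stood at 57.6, 16.8 and 5.22 CPM in the same order, also with a log2 ratio of 3.47. It would lie under the limit of 10 CPM without the high cells, and so entered the ranking through them. Smpdl3a is a near neighbour of Fabp7, on the same strand of chromosome 10 from 57794335 to 57811830, and held 46 UMIs in the high cells with both genes, 113 UMIs with Fabp7 only and 1 UMI with Hes5 only. Whether the position bears on its ratio was not tested. Enpp2, or autotaxin, which makes the signalling lipid lysophosphatidic acid, followed at 91.9, 33.9 and 10.0 CPM (3.20).

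Of the rest of the 12 largest ratios, Adgrb3, an adhesion receptor of the brain angiogenesis inhibitor family, stood at 87.9 CPM in the high cells and 13.97 CPM in the 0-UMI cells, a log2 ratio of 2.65. Erbb3, a receptor for neuregulins, stood at 129 and 21.6 CPM (2.58), and was found in 50.5% and 14.9% of cells. Lhfpl3, a membrane protein gene enriched in oligodendrocyte precursors, stood at 425 and 83.1 CPM (2.36), and was found in 80.4% of the high cells and 30.9% of the 0-UMI cells. Hes1 and Notch1 were also among them and are described with their pathway. Olfm2, a secreted olfactomedin, had a log2 ratio of 2.24, the predicted gene Gm4876 had 2.20 and Nckap5 had 2.18. Rsad2 (2.63), an antiviral gene, differed from the others in its spread over cells and is described with the interferon genes.

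**Figure D2:**
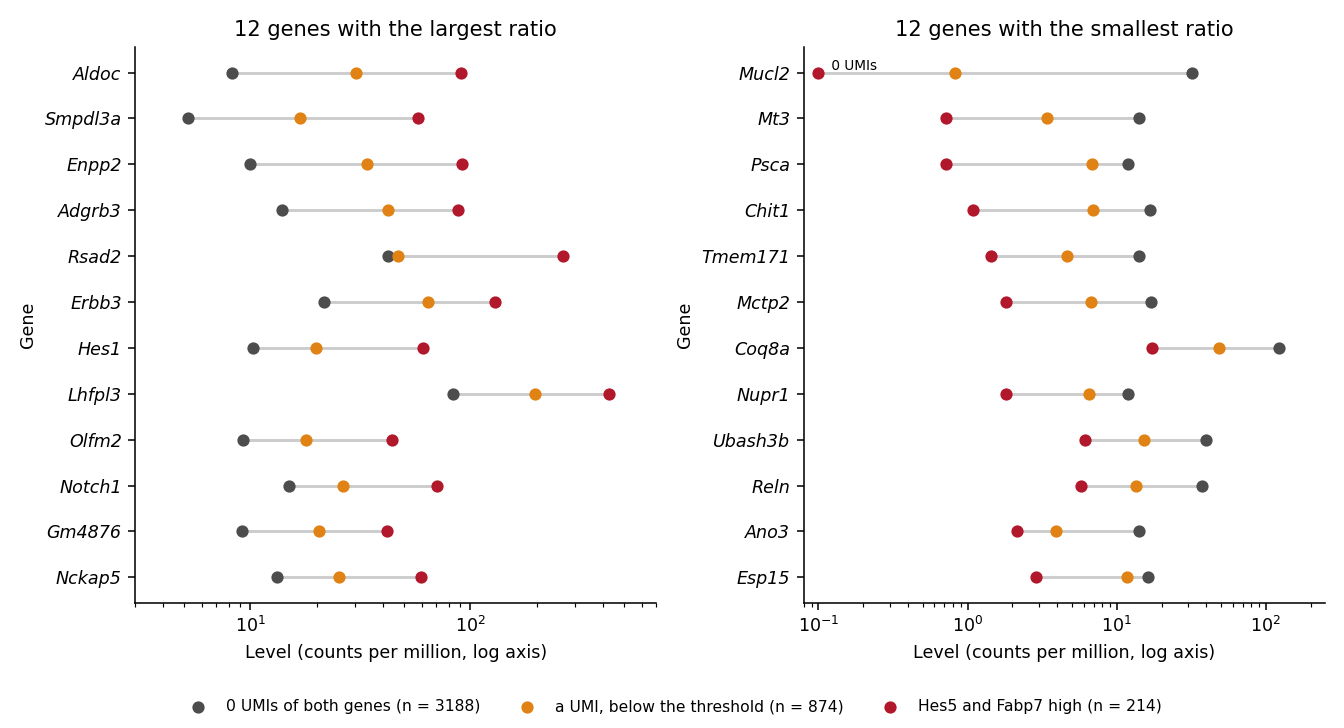
Levels in CPM (log axis) of the 12 genes with the largest and the 12 with the smallest log2 ratio, in the 0-UMI cells, the intermediate cells and the Hes5 and Fabp7 high cells. The genes were chosen for the gap between the high cells and the 0-UMI cells, and Aldoc runs from 8.21 CPM in the 0-UMI cells to 90.8 CPM in the high cells. Rsad2 in the intermediate cells is close to the 0-UMI cells, and Mucl2 is drawn at 0.1 CPM because the high cells held 0 UMIs of it.

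Of the Notch pathway, the target Hes1 and the receptors Notch1 and Notch2 were higher in the high cells, while 17 of 19 measured processing and nuclear factors lay within 1.5-fold. Hes1 (ENSMUSG00000022528, chromosome 16 from 30064384 to 30067796), the other main HES repressor under Notch control, stood at 60.9 CPM in the high cells, 20.0 CPM in the intermediate cells and 10.3 CPM in the 0-UMI cells. This was 5.91-fold higher, a log2 ratio of 2.56 (95% counting interval 2.30 to 2.82), with a UMI in 41.1% and 10.2% of cells. Hes1 was the only 1 of the 5 fixed targets to reach 10 CPM over the library. The others lay under that limit and stood outside the counts above, and are given as values. Nrarp was found in 24.8% of the high cells and 2.20% of the 0-UMI cells, at 36.4 CPM (101 UMIs) and 1.72 CPM (80 UMIs), a log2 ratio of 4.399 (3.96 to 4.84). Hey1 (10 and 20 UMIs) had a log2 ratio of 3.06 (1.80 to 4.22), and Hey2 (5 and 26 UMIs) had 1.68 (-0.05 to 3.09). Heyl was seen in 1 UMI of the high cells and 2 UMIs of the 0-UMI cells, too few for a ratio.

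Of 4 receptors, 2 were measured, and both were higher. Notch1 (chromosome 2 from 26457903 to 26516663, minus strand) stood at 70.2 CPM in the high cells, 26.4 CPM in the intermediate cells and 15.01 CPM in the 0-UMI cells, 4.68-fold higher with a log2 ratio of 2.23 (1.99 to 2.46). Notch2 stood at 35.3, 26.5 and 21.3 CPM (0.73, 0.41 to 1.03). Among the ligands, Jag1 stood at 39.3 CPM in the high cells and 14.6 CPM in the 0-UMI cells (1.43, 1.12 to 1.72). Dll1 stood at 45.0 and 62.9 CPM (-0.48, -0.75 to -0.22), and Dll3, which acts inside the cell that makes it, at 263 and 233 CPM (0.17). The ligands thus differed in direction. Notch3 (2 UMIs in the high cells) and Notch4 (5 UMIs) lay below the limit of 10 CPM, with intervals that included 0.

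The enzymes and nuclear factors of the pathway had a median log2 ratio of -0.05 over the 19 measured genes. Those that cut the receptor were close to 0, such as Adam10 (-0.10) and Ncstn (-0.15). Rbpj itself stood at 37.1 CPM in the high cells and 38.3 CPM in the 0-UMI cells, a log2 ratio of -0.05 (-0.35 to 0.24). Maml2, a coactivator that joins the RBPJ complex, was the exception at 128 and 43.2 CPM (1.57, 1.40 to 1.73), whereas its relatives Maml1 (-0.15) and Maml3 (-0.25) were not higher. Numb, an inhibitor of Notch, stood at 0.64. Of the genes of this list under the limit of 10 CPM, Lfng held 9 and 5 UMIs, a log2 ratio of 4.91 (3.18 to 6.84). Mfng lay at 0.48 and Dtx1 at 0.74, with intervals that included 0, and Dtx4 at -0.91 (-1.99 to -0.02). The letters TGGGAA were found in 24.5% of 139 promoters of the genes at least 2-fold higher, close to 21.9% of 9004 promoters of all measured genes.

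Some markers of radial glia and astrocytes were higher, and others were close to even. Of 10 measured genes of radial glia and neural stem cells, 3 were at least 1.5-fold higher and 0 lower, with a median log2 ratio of 0.41. Slc1a3, a glutamate transporter of radial glia and astrocytes, stood at 236 and 61.0 CPM in the high and 0-UMI cells (1.95, 1.83 to 2.08), and was found in 70.1% and 41.1% of cells. Sox2, a stem cell transcription factor, stood at 291 and 161 CPM (0.85), and Cdh2 at 0.68. Nes, an intermediate filament gene of neural stem cells, lay slightly the other way at 183 and 213 CPM (-0.22, -0.35 to -0.09). Of 7 measured astrocyte genes, 4 were higher at 1.5-fold and 1 lower, with a median of 0.77. Besides Aldoc, Sparcl1, a secreted matrix protein, stood at 119 and 43.0 CPM (1.46), Nfia, a factor that promotes the glial fate, at 206 and 116 CPM (0.83), while Glul, glutamine synthetase, stood at 27.4 and 46.9 CPM (-0.78). S100b, a calcium-binding protein of astrocytes, stood at 403 and 236 CPM (0.77), and was found in 92.1% and 83.3% of cells. Gfap, Slc1a2 and Aldh1l1, which define mature astrocytes, were low in both groups, although the line is labelled as astrocytoma. Gfap held 2 UMIs in the high cells and 20 UMIs in the 0-UMI cells, Slc1a2 held 0 and 1, and Aldh1l1 held 4 and 303.

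Genes of oligodendrocyte precursors differed among themselves. Of 9 measured genes, 4 were higher at 1.5-fold and 1 lower, with a median of 0.54. The lineage factors Olig1 (0.12) and Olig2 (0.09) hardly differed. Nkx2-2, which drives maturation of the lineage, stood at 24.5 and 10.0 CPM (1.29), and Sox8 at 20.9 and 68.8 CPM (-1.72, -2.12 to -1.35). Pdgfra, the growth factor receptor that defines the precursors, lay below the limit of 10 CPM at 15.5 and 2.76 CPM (43 and 128 UMIs). Of the myelin genes, Mbp (1.08), a major myelin protein, was higher together with Enpp2, whereas Cnp, an enzyme of the myelin sheath, lay at -0.29. The 7 measured genes of the list had a median of -0.20. When both groups were weighted to the same clusters, Mbp lay at -0.029.

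**Figure D3:**
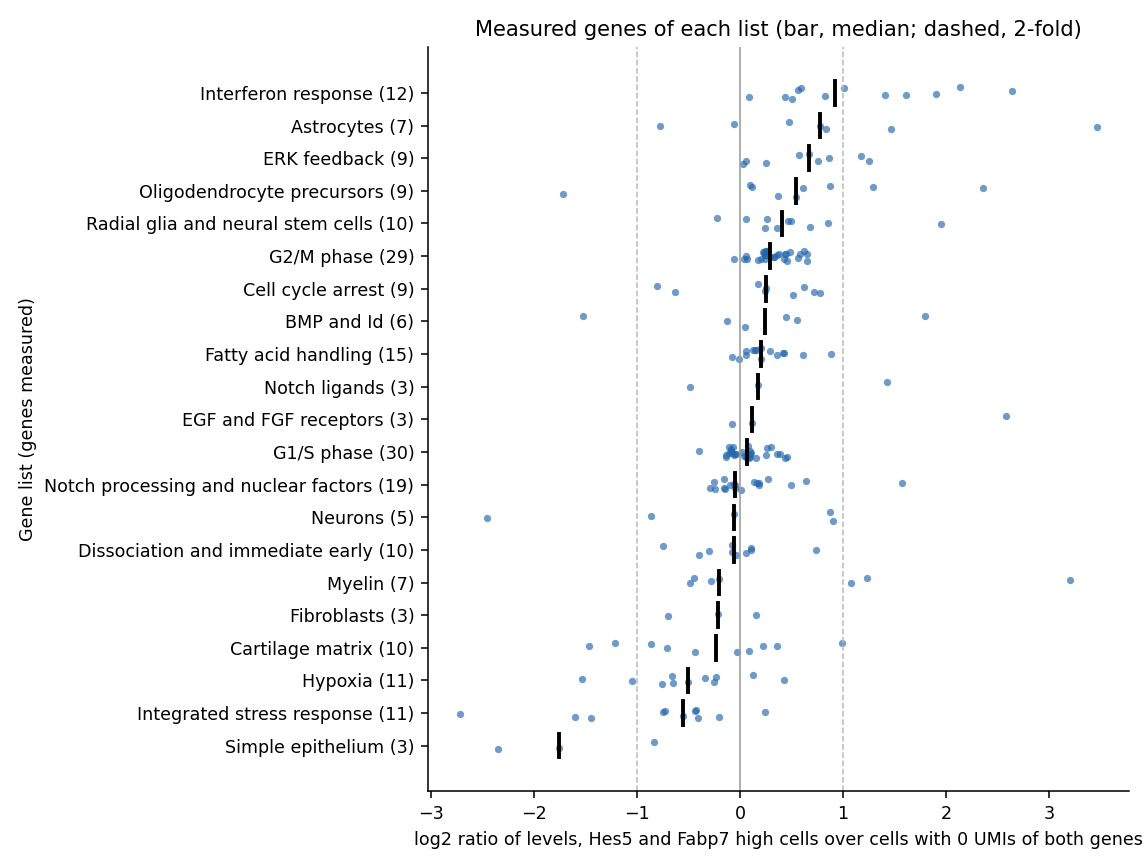
The log2 ratio of levels in the Hes5 and Fabp7 high cells over the 0-UMI cells for each measured gene (points) of the gene lists with at least 3 measured genes, with the list's median as a bar and 2-fold limits dashed. The medians run from 0.92 for the interferon response to -1.76 for simple epithelium, against 0.03 over all 8772 genes.

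Among inhibitors of differentiation, Id3, which blocks basic helix-loop-helix factors, stood at 500 CPM in the high cells and 144 CPM in the 0-UMI cells (1.80, 1.71 to 1.88). Its relative Id1 lay the other way, at 65.6 and 189 CPM (-1.53, -1.75 to -1.32), and Id2 stood at 0.55. Of 9 measured genes that the ERK pathway switches on, 5 were higher at 1.5-fold and 0 lower, with a median of 0.67. The largest were Etv1 (1.25), a transcription factor, and Dusp6 (1.17), a phosphatase that shuts off ERK. Of the receptors for EGF and FGF families, Erbb3 differed, whereas Fgfr2 (-0.08) and Fgfrl1 (0.11) did not reach 1.5-fold. Egfr held 0 UMIs in the high cells and 1 UMI in the 0-UMI cells.

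Genes that handle fatty acids were close to even apart from 2 of 15, and the list had a median of 0.20. Dbi, which binds acyl-CoA, stood at 6789 and 3697 CPM (0.88, 0.86 to 0.90), and Fads2, a fatty acid desaturase, at 61.2 and 40.1 CPM (0.61). Fabp5, the relative of Fabp7 measured, stood at 0.14. Sat1, an enzyme that breaks down polyamines, was at 2448 and 619 CPM (1.98, 1.94 to 2.02), and was the gene with the highest rank correlation with Hes5, as described below.

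Keratin 8 was among the lower genes. Krt8, an intermediate filament of simple epithelia, stood at 736 CPM in the high cells, 1269 CPM in the intermediate cells and 3759 CPM in the 0-UMI cells, a log2 ratio of -2.35 (95% counting interval -2.42 to -2.29). It was found in 37.4% of the high cells and 82.0% of the 0-UMI cells, and 5 cells held 59.1% of its UMIs in the high cells. All 3 measured genes of simple epithelium were lower at 1.5-fold, with Krt18 at -1.76 and Epcam at -0.84. Krt8 was near absent from the adherent library at 3.93 CPM.

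The 12 smallest ratios were mostly of sparse genes. Mucl2, a mucin-like gene, held 0 UMIs in the high cells and 1491 UMIs in the 0-UMI cells, at least 29.7-fold lower with a floor of 3 counts over the group. Mt3, a metallothionein (2 and 653 UMIs, a log2 ratio of -4.29 with an interval of -7.34 to -2.43), Psca (2 and 552 UMIs, -4.05) and Chit1, a chitinase (3 and 771 UMIs, -3.94), rest on few counts. Coq8a, which takes part in coenzyme Q synthesis, was the best covered of the 12 at 17.3 and 122 CPM (-2.82, -3.27 to -2.42), and was found in 14.02% of the high cells and 54.7% of the 0-UMI cells. Reln, a secreted matrix protein, stood at 5.76 and 37.5 CPM (-2.70), and Ubash3b, a phosphatase, at 6.12 and 39.9 CPM (-2.70). Tmem171 (-3.30), Mctp2 (-3.24), Ano3 (-2.70), Esp15 (-2.50) and the stress gene Nupr1 (-2.72) held 4 to 8 UMIs each in the high cells.

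Some stress and low oxygen genes were lower. Of 11 measured genes of the integrated stress response, 5 were lower at 1.5-fold, 6 lay within it and 0 were higher, with a median of -0.56. Trib3 stood at 19.8 and 60.1 CPM (-1.60), and Atf4, the factor at the centre of the response, at 212 and 357 CPM (-0.75). Of 11 measured hypoxia genes, 5 were lower, 6 lay within 1.5-fold and 0 were higher, with a median of -0.50. Slc2a1, the glucose transporter GLUT1, stood at 59.1 and 172 CPM (-1.54, -1.77 to -1.32), and Vegfa at 9.73 and 20.1 CPM (-1.05). Genes that dissociation induces were even, with 1 higher and 1 lower of 10 and a median of -0.06. Cartilage matrix genes had a median of -0.23 over 10 genes, with Matn1 (-1.22) and Comp (-1.47) lower and Col2a1 (0.99) higher.

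All 30 measured genes of the G1/S phases lay within 1.5-fold, with a median of 0.06. Of 29 measured genes of the G2/M phases, 3 were higher at 1.5-fold and 0 lower, with a median of 0.29. Over all 8772 genes, 5.89% were higher at 1.5-fold and the median was 0.03. Of the 29, 28 lay above 0, and Top2a, which untangles DNA at mitosis, had the largest log2 ratio at 0.65. The cell cycle inhibitors were mixed, with Cdkn2c (0.77) and Cdkn1b (0.72) higher and Cdkn1a (-0.81), a p53 target, lower.

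The high cells held 2776112 UMIs in all and the 0-UMI cells 46379203, so a sparse gene is missed more easily in the high cells. The share of all genes with no UMI there was not counted. Of 9 immune genes, 7 had no UMI in the high cells, and 5 of these had none in any kept cell. The list summed to 1.08 CPM in the high cells, 1.77 CPM in the intermediate cells and 3.10 CPM in the 0-UMI cells. The 6 endothelial genes summed to 28.5 and 25.3 CPM, of which Flt1 gave 25.9 and 21.3 CPM, and the 7 ependymal genes to 9.01 and 13.5 CPM. The 6 fibroblast genes summed to 429 and 581 CPM, nearly all from Col1a1, Col3a1 and Dcn, while Pdgfrb held 0 UMIs and Col1a2 held 1 UMI in the high cells. The collagen gene Col1a1 was found in 50.5% of the high cells and 71.0% of the 0-UMI cells (-0.70), and Col3a1 in 36.9% and 47.8% (-0.21). Of 13 neuronal genes, 7 had no UMI in the high cells, and 2 of these had none in any kept cell. Among the 7 were Rbfox3 and Stmn2, which held 0 and 1 UMI in the 0-UMI cells. Others were found in many cells, such as Map2, a microtubule-associated protein, in 66.4% and 72.5% of cells (-0.06). Sox4 (0.90) and Syt1, a synaptic vesicle protein (0.87), were higher and Sox11 lower (-2.46, 6 and 551 UMIs). The proneural factor Neurog2, which HES repressors hold back, held 3 and 12 UMIs.

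Most interferon genes were higher, and a few cells held much of the RNA of some of them. Of its 12 measured genes, 8 were higher at 1.5-fold and 0 lower, with a median of 0.92. Rsad2 stood at 263 and 42.4 CPM, Ifit3 at 125 and 28.5 CPM (2.13), and Isg15, a ubiquitin-like protein, at 835 and 314 CPM (1.41), and was found in 89.7% and 72.1% of cells. Yet 5 high cells held 84.1% of the Rsad2 UMIs, 67.2% of the Ifit3 UMIs and 96.1% of the Cxcl10 UMIs, and Rsad2 was found in 32.2% of the high cells and 28.5% of the 0-UMI cells. Without the 5 high cells richest in interferon genes, chosen after the values were seen, Rsad2 lay at 0.14, Ifit3 at 0.63 and Cxcl10 at -2.56. The 0-UMI cells were left untrimmed, so lower ratios were in part built in. In them, 5 cells held 13.0% of the Rsad2 UMIs, 11.1% of the Ifit3 UMIs and 65.3% of the Cxcl10 UMIs. The removal from the high cells left Hes1 (2.58) and Notch1 (2.26) in place.

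Within the high cells, Nrarp, Notch1 and Id3 were lowest in the cells with Fabp7 only, while Lhfpl3, Aldoc and Pdgfra were highest there. The 67 cells with both genes and the 126 cells with Fabp7 only were similar in depth, with medians of 11359 and 10712.5 UMIs. Nrarp stood at 78.3 CPM in the former and 8.59 CPM in the latter, a log2 ratio of 3.19 (95% counting interval 2.35 to 4.13), and at 68.1 CPM in the 21 cells with Hes5 only. Hey1 held 5 UMIs, 0 UMIs and 5 UMIs in these 3 subsets. Notch1 stood at 102, 51.5 and 79.4 CPM, with a log2 ratio of 0.99 (0.54 to 1.43) between the first 2, and Hes1 at 79.4, 53.4 and 45.4 CPM (0.57, 0.10 to 1.04). Id3 stood at 822, 294 and 700 CPM (1.49, 1.32 to 1.65).

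Lhfpl3 was highest with Fabp7 only, at 303 CPM with both genes, 540 CPM with Fabp7 only and 125 CPM with Hes5 only (-0.83, -1.04 to -0.63). Aldoc stood at 65.8, 118 and 7.57 CPM (-0.84, -1.29 to -0.41). Pdgfra held 6, 37 and 0 UMIs. Dll3 was highest with Hes5 only, at 707 CPM against 166 and 244 CPM, although 5 of those 21 cells held 67.9% of its UMIs. The log2 ratios in brackets compare the cells with both genes to those with Fabp7 only. In the 0-UMI cells, which all subsets share as a reference, Lhfpl3 stood at 83.1 CPM and Aldoc at 8.21 CPM. Cells chosen by Hes5 alone (194 cells), compared with the 4082 cells without a Hes5 UMI, which include cells with Fabp7, gave 45 higher and 55 lower genes, with Hes1 at 1.90, Notch1 at 1.67 and Aldoc at 0.71. The top 5% by Fabp7 alone, compared with the 3269 cells without a Fabp7 UMI, gave 162 and 174. Both the chosen cells and the comparison cells differ between these counts and the 148 and 153 above.

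**Figure D4:**
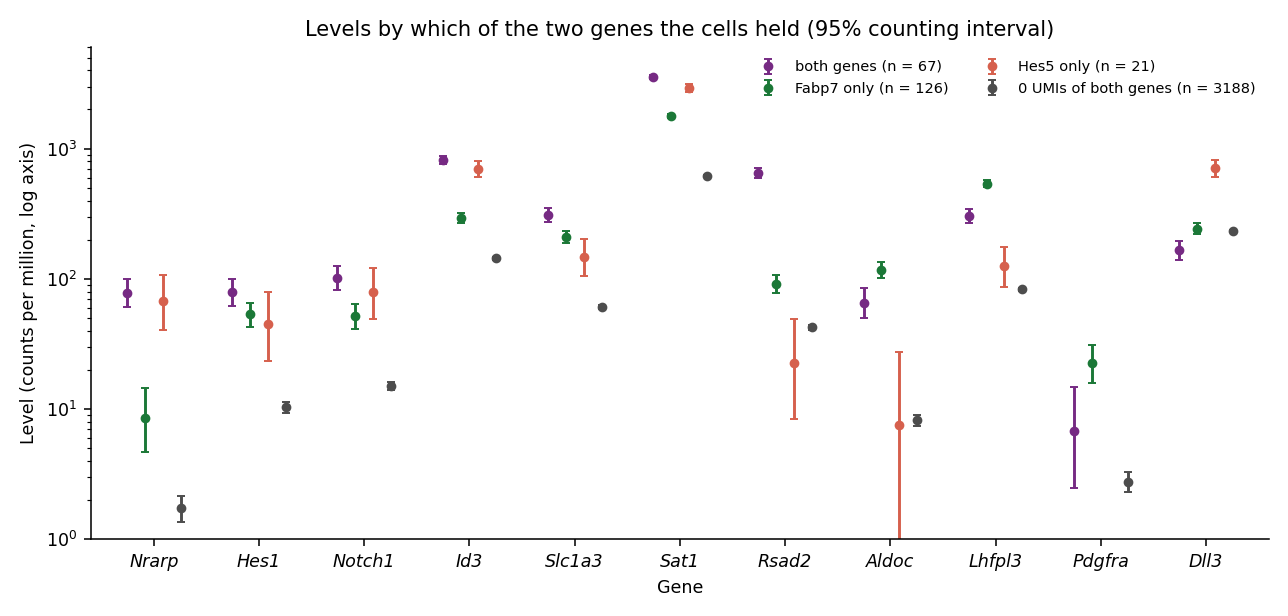
Levels in CPM (log axis, 95% counting intervals) of 11 genes in the high cells with both genes, with Fabp7 only and with Hes5 only, and in the 0-UMI cells. Nrarp stands at 78.3 and 68.1 CPM in the subsets with Hes5 and 8.59 CPM with Fabp7 only, while Lhfpl3 and Pdgfra are highest with Fabp7 only, and a level with 0 UMIs is not drawn.

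The high cells lay unevenly over 9 clusters of the neurosphere cells, which were made without Hes5 and Fabp7. Cluster 0, led by Depdc1b, Rtkn2, Adgrb3 and the mitotic genes Aspm and Kif18b, held 31.3% of the high cells and 10.3% of the 0-UMI cells. Cluster 8, led by Lcn2 and Ccl2, held 24.3% and 4.64%, and the high cells made up 18.6% of it (95% interval 14.2% to 23.6%). Cluster 6, led by Enpp2 and Mbp, held 18.2% and 7.97%. Cluster 4, led by Reln, held 4 high cells, which were 1.87% of them, against 14.4% of the 0-UMI cells. Cluster 7, led by Chit1, Mt3, Cxcl10 and the interferon genes Ifit3b and Ifit3, held 2 high cells. These were 0.935% of the high cells, against 8.53% of the 0-UMI cells. Of the 21 cells with Hes5 only, 7 lay in cluster 1, led by Comp, against 0 of the 126 cells with Fabp7 only. The clusters were given no cell type name, since the cells are of 1 line.

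Hes1, Notch1, Aldoc and Id3 were higher in the high cells within each of clusters 0, 6 and 8. Hes1 had log2 ratios of 2.23, 2.30 and 1.16 in that order, and Notch1 had 1.46, 1.01 and 1.99. Aldoc had 2.71, 1.57 and 2.97, and Id3 had 2.39, 1.45 and 1.47. Krt8 was lower in all 3, at -2.24, -3.54 and -1.84. With both groups weighted to the high cells' shares of all 9 clusters, Krt8 lay at -1.34, Aldoc at 2.60, Hes1 at 1.78, Notch1 at 1.56 and Id3 at 1.52, all nearer 0 than without the weighting. Other genes depended on the cluster. Rsad2 lay at 2.57, 0.68 and -0.87, Lhfpl3 at 1.92, 0.56 and 0.63, and Erbb3 at 2.15, 1.39 and 0.66. Jag1 lay at 1.27, 0.04 (-0.92 to 0.89) and 1.18, and Slc2a1 at -0.62, -0.47 and -1.54.

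**Figure D5:**
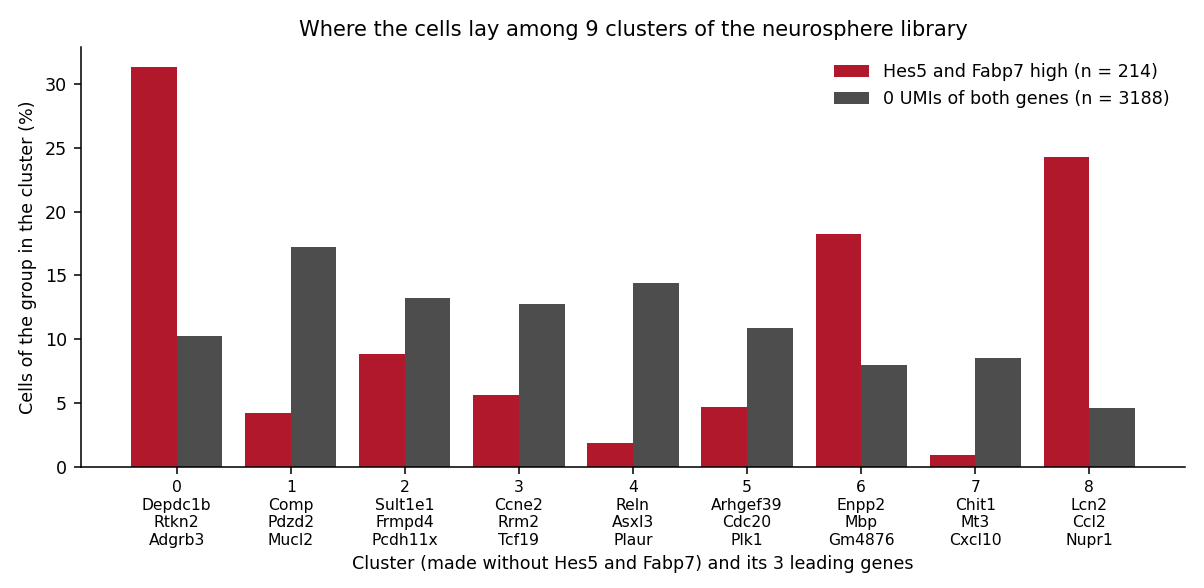
Share of the 214 Hes5 and Fabp7 high cells and of the 3188 0-UMI cells in each of the 9 clusters of the neurosphere library, in percent, with the 3 leading genes of each cluster. Clusters 0, 8 and 6 hold 31.3%, 24.3% and 18.2% of the high cells, against 10.3%, 4.64% and 7.97% of the 0-UMI cells.

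Being high in Hes5 and Fabp7 overlapped only in part with being high in other programs. Of the high cells, 14.5% (95% interval 10.1% to 19.9%) were also in the top 5% of cells by the radial glia list, against 4.39% of the 0-UMI cells. For the astrocyte list the shares were 13.6% and 4.297%, and for the oligodendrocyte precursor list 10.7% and 4.05%. For the epithelial list they were 0.467% and 6.62%, and for the integrated stress response 1.87% and 5.46%. For the interferon list they were 9.81% and 4.89%, for the G2/M list 7.94% and 4.11%, for the G1/S list 5.14% and 5.55%, and for the cartilage list 2.80% and 5.93%. These lists were scored on the same UMIs as the cells, at the depths given above.

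Over 4196 cells thinned to 5000 UMIs, the genes ranked most alike to Hes5 were Sat1 (Spearman's rho of 0.19), Fabp7 (0.18), Id3 (0.11) and Ckb (0.11). Those most alike to Fabp7 were Lhfpl3 (0.28), Ppp2r2b (0.23), Erbb3 (0.22) and Sat1 (0.22). The cells come from 1 library, most hold no UMI of either gene, and the correlations are weak descriptions. Lsamp (387 and 91.4 CPM), Alcam (285 and 96.1 CPM) and Slc1a3, all cell surface proteins, followed for Fabp7 at 0.20, 0.20 and 0.19.

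The same score was also applied to the adherent library, whose cells took no part in choosing the genes above. Hes5 was close to absent there at 0.302 CPM and was detected in 7 of 5051 cells, whereas Fabp7 stood at 40.0 CPM in 23.0% of cells. The adherent top 5% of 253 cells were therefore chosen almost wholly by Fabp7, and only 93 adherent cells reached the neurosphere threshold. Their median was 7018 UMIs, against 8065 UMIs in the 3885 adherent cells with 0 UMIs. Of the 148 genes higher in neurosphere high cells, 117 reached 10 CPM in adherent cells, and 101 of them (86.3%) lay above 0 in the adherent comparison, against 45.0% of all 7617 genes measured in both libraries. Their median adherent log2 ratio was small at 0.36, against -0.03 for all genes. Of 78 lower genes, 57 (73.1%) lay below 0, against 55.0% of all genes, with a median of -0.21.

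Some genes carried over to the adherent cells and others did not. Aldoc stood at 2.53 (95% counting interval 2.17 to 2.88), Olfm2 at 2.22 (1.71 to 2.70), Smpdl3a at 1.84, Scrg1 at 1.69 and Enpp2 at 1.70. Lhfpl3 stood at 1.22 and Slc1a3 at 0.70. Of the Notch genes, Jag1 stood at 0.95, Hes1 at 0.53 (0.03 to 1.00) and Notch1 at 0.25 (-0.16 to 0.63), and Nrarp rested on 6 UMIs in the adherent high cells. Sat1 stood at -0.06 (-0.14 to 0.01), although it was at 1.98 in neurosphere cells. Id1, lower in the neurosphere high cells, stood at 0.28 (0.20 to 0.36) in adherent cells. With 1 library of each, the difference between the libraries was not tested.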

How the data were processed

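Per the submitters' processing notes, reads were processed with Cell Ranger 7.0.1 on mm10. The annotation and the setting for introns are not given in the sources used here. The authors deposited the raw UMI count of each gene in each called cell, without normalization. From these counts, 13 mitochondrial and 101 ribosomal genes were removed, then cells under 1000 UMIs or under 2250 genes (1250 genes for adherent cells). UMIs were summed per group and given as CPM. Log2 ratios have exact conditional 95% intervals, CPM exact Poisson and shares exact binomial (Clopper-Pearson) intervals, and all cover counting error only. Genes at or under 3 UMIs in both groups were given no ratio. Doublets were not called, and cells over the 95th percentile of UMIs were left out as an alternative. The comparison script was tested on simulated data.

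Named genes were the 12 largest and 12 smallest log2 ratios, up to 4 genes with the largest absolute ratio of each of 29 gene lists, any Notch pathway gene, and the 8 genes most correlated with Hes5 or Fabp7. Pdgfra, Nes, Olig1, Olig2, Gfap, Aldh1l1, Slc1a2, S100b, Map2, Col1a2, Pdgfrb, Isg15, Fabp5, Egfr, Neurog2, Rbfox3, Stmn2 and the genes that lead clusters were chosen after their values were seen. The cells, lists and settings were chosen with earlier results of these data known. Clusters came from Seurat 5.3.0 under R 4.3.3 (2000 variable genes, 18 PCs, resolution 1), made without Hes5 and Fabp7. TMM factors came from edgeR 4.0.16, with no edgeR test. Python 3.11.15 with numpy 2.4.6 and scipy 1.17.1 served for the rest. Other settings, 16 of them set at the start and the rest added after the data were seen, are given in the closing section. Some genes are not reported here.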

Additional observations from a re-analysis of the deposited data

How the results depend on the processing

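Of 48 named genes past 2-fold, 46 kept their direction under all 16 planned and 4 added settings. The exceptions were Mbp, at -0.029 with both groups weighted to the clusters of the high cells, and Cxcl10, at -0.085 under the same weighting. Cxcl10 also lay at -2.56 without the 5 high cells richest in interferon genes, a step that left the 0-UMI cells untrimmed. No list median that was past 1.5-fold reversed. The settings that change only the filter on low genes leave the ratio of each gene as it was, so they could not reverse a named gene. The count of genes at least 2-fold higher was 148, and was 234 with the top 2% of cells, 302 with genes of at least 3 CPM, 67 with at least 30 CPM, 1524 with no filter on low genes, 45 with Hes5 alone, 264 with the cells that held both genes and 47 under cluster weighting. The count of lower genes was 153, and was 246, 321, 69, 771, 55 and 269 under the first 6 of these in order. Fewer or more genes were counted by construction under the filters, and the cause of the other moves was not tested. In the other settings the higher genes numbered 101 to 175 and the lower genes 118 to 229. With TMM scaling there were 122 higher and 185 lower genes, so that 39.7% of calls were higher against 49.2%. The log2 ratio of Fabp7 between cells with and without Hes5 was 2.90, and was 3.36 in thinned cells, 3.57 in cells with 10000 to 20000 UMIs and 2.50 without the cell with most Fabp7 UMIs. The cluster weighting, the subsets of high cells, and the removal of single cells were chosen after the data were seen. Leaving out a replicate or pairing was not possible with 1 library per condition, and genes under 10 UMIs in the high cells have wide intervals.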
